A study of Mus musculus with 4 samples.

Results

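Pannexins and connexins build the large-pore channels through which cells pass ions, ATP and second messengers. The 8 family members described here are Panx1, Panx2, Panx3, Gja1, Gja4, Gja5, Gjb2 and Gjc1, out of 22180 named genes on the array. They were chosen with the differences between the groups already known, and each is read by the row of the deposited table that carries its symbol alone, which was a single row for every member. All 8 had a value and all 8 lay above the detection floor of 4.71 (log2 scale) on all 4 arrays. To set that floor, mean levels were taken for 1405 rows of odorant and pheromone receptors, genes with no known use in bone cells, and 90% of them lie below it.

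RNA came from primary osteoblasts grown out of newborn mouse calvaria, the flat bones of the skull vault, and kept for 21 days in osteogenic medium with ascorbate and glycerol phosphate. The study compared 2 cultures labelled Runx3f/f/Col1a1-cre, in which a floxed Runx3 is the target of a Cre driven by the Col1a1 promoter, with 2 labelled WT (wild type), to find the genes that depend on the Runt-family factor Runx3 in these cells. Each group holds biological replicates 1 and 2; whether these are separate litters or pools of animals, and whether the wild-type mice carry the floxed allele or the Cre, the labels do not say. The Cre is meant for cells that make type I collagen, and in which cells of these cultures it acted was not tested.

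The labels and the arrays do not fully match. Runx3 read 7.94 and 8.06 on the arrays labelled as mutant and 7.45 and 7.87 in wild type, so it was not lower there, and the deleted exons are not given; the first group is therefore called mutant-labelled. The tissue tag reads myoblast while titles and cell type read osteoblast. Col1a1, the main bone collagen, lay between 13.45 and 13.57, whereas Myog, a defining myoblast factor, lay between 5.95 and 6.72. The tested genes had median levels of 7.53 in replicate 1 and 7.81 in replicate 2, alike in both groups. With 2 arrays a group, p-values measure only the spread between these arrays, which the fit used here draws toward that of all tested genes.

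Pannexins and connexins resemble each other in how they cross the membrane but not clearly in sequence. Connexins assemble into hemichannels that dock between neighbouring cells as gap junctions, whereas pannexins work mostly as channels of a single membrane that release ATP. In bone, Gja1 (Cx43) joins osteoblasts and osteocytes into a network, and Panx3 appears as osteoblasts and growth plate chondrocytes mature, where it releases ATP and lets calcium out of the endoplasmic reticulum. Runx2, the relative of Runx3 that directs osteoblast formation, is a known regulator of Panx3 in cultured cells.

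Panx3 stood apart from the other 7 members. Its level was 8.66 on both mutant-labelled arrays, and 9.90 and 9.91 on the wild-type arrays of replicates 1 and 2. The groups did not overlap, and the values within each group lay almost on top of each other (mean 8.66 ± 0.0042 against 9.91 ± 0.011, SD, n = 2 arrays each). The mutant-labelled mean was lower by 1.24 log2 units (difference -1.24, SE 0.11 from the limma fit), which is 2.37-fold. Within replicate 1 the difference was -1.23 and within replicate 2 it was -1.25. Ordered by difference over 17841 tested genes, Panx3 was number 96 from the low end in replicate 1 and number 73 in replicate 2. Because this contrast chose the members, the values are given as a description and without a test.

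Panx1, the widely expressed pannexin that caspases open in dying cells, was lower by a smaller amount. It read 7.26 and 7.11 on the mutant-labelled arrays against 7.57 and 7.49 in wild type. Both mutant-labelled arrays lay below both wild-type arrays (7.19 ± 0.11 against 7.53 ± 0.059, SD, n = 2). The difference was -0.34 (SE 0.13), with -0.31 in replicate 1 and -0.38 in replicate 2, or 1.24-fold and 1.30-fold.

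Panx2, the pannexin best known from brain, gave 6.77 in replicate 1 and 6.80 in replicate 2. The mutant-labelled and wild-type values were exactly equal in each replicate, to every deposited digit. Such equal values are common in this table, and no source used here says how they arose, so they do not establish that Panx2 RNA was the same in both groups.

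**Figure D1:**
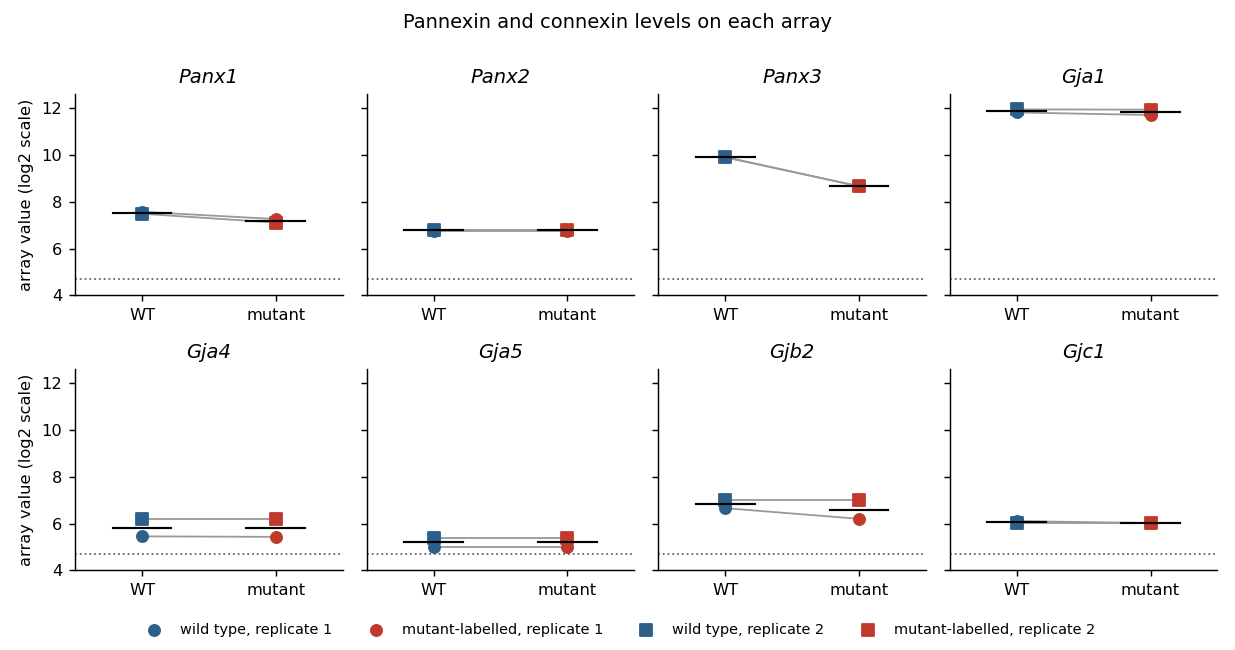
Value of each pannexin and connexin (y axis, log2 scale) on every array, with wild type on the left and mutant-labelled on the right; circles are replicate 1, squares replicate 2, grey lines join the arrays of a replicate number, black bars are means of 2 arrays and the dotted line is the detection floor of 4.71. The group means of Panx3 differ by -1.24 while the lines of Panx2 and Gja5 are level; heights of different genes are not comparable, since each is read by other probes.

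Among the connexins, Gja1 was bright in every culture and differed little. It read 11.70 and 11.93 on the mutant-labelled arrays and 11.81 and 11.94 in wild type. The groups overlapped, since replicate 2 of the mutant-labelled cultures lay above replicate 1 of the wild type (11.82 ± 0.16 against 11.88 ± 0.092, SD, n = 2). The difference was -0.06 (SE 0.15), with -0.11 and -0.01 within the replicates. Both groups were brighter in replicate 2, by 0.23 and 0.13.

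Gjc1 (Cx45), which osteoblasts make beside Gja1 and which alters the permeability of the junctions they share, read 6.02 on both mutant-labelled arrays and 6.10 and 6.02 in wild type. Its difference was -0.04 (SE 0.12), all of it from replicate 1 (-0.08), since the arrays of replicate 2 held exactly equal values.

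Gjb2 (Cx26), a connexin of epithelia and of the cochlea, read 6.20 and 6.99 on the mutant-labelled arrays and 6.66 and 6.99 in wild type. It was lower by 0.45 in replicate 1 (difference -0.45), and exactly equal in replicate 2. The mutant-labelled arrays differed from each other by 0.79, more than the groups did in either replicate, and the mean difference of -0.23 had an SE of 0.34. Without mutant-labelled replicate 1 the difference was 0.17.

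Gja4 (Cx37) and Gja5 (Cx40), the connexins of arterial endothelium, were dim. Gja4 read 5.43 and 6.18 on the mutant-labelled arrays and 5.45 and 6.18 in wild type, a difference of -0.01 (SE 0.41). It moved with the replicate number and not with the group, by 0.75 in the mutant-labelled cultures and 0.72 in wild type, where the median tested gene moved by 0.28 in both groups. Gja5 read 5.02 in replicate 1 and 5.40 in replicate 2, again exactly equal between the groups, and within 0.31 of the floor on the dimmest array. A further row names Gja5 together with Gpr89; it is shared between those genes and was not used.

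Of the 8 members, 3 were lower in both replicates (Panx1, Panx3 and Gja1) and 0 were higher in both. Over all tested genes 19.5% were lower in both and 16.8% higher in both. For 2 members, Panx1 and Panx3, the groups did not overlap, with the mutant-labelled arrays below, against 9.25% of tested genes; 0 members lay above without overlap, against 7.66%. Panx3 was the 1 member that differed by 1.5-fold or more, in a shared direction, in each replicate, against 2.63% of tested genes (1.15% lower and 1.47% higher). The median difference of the members was -0.05 and that of all tested genes was 0. The members were chosen on this contrast, so nothing is read from these shares.

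Exactly equal mutant-labelled and wild-type values were found for 2 members in both replicates (Panx2 and Gja5), against 25.7% of tested genes. A further 3 (Gja4, Gjb2 and Gjc1) were equal in replicate 2 only, against 24.6% of tested genes, which makes 5 members equal in that replicate, against 50.2%. The remaining 3, Panx1, Panx3 and Gja1, had unequal values in both replicates.

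**Figure D2:**
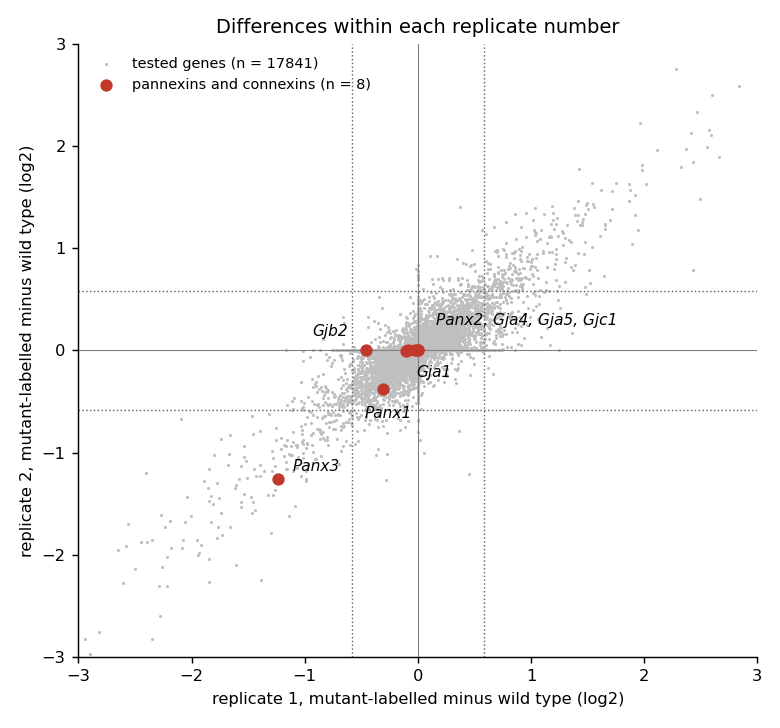
Difference between mutant-labelled and wild-type arrays (log2) within replicate 1 (x axis) and replicate 2 (y axis) for 17841 tested genes (grey) and the 8 pannexins and connexins (red); dotted lines mark 1.5-fold and 9 genes lie outside the plotted range of 3 log2 units. Panx3 sits at -1.23 and -1.25, Panx1 at -0.31 and -0.38, and 5 members lie on the line of 0 for replicate 2.

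Runx factors bind hexamers of the form TGTGGT or TGCGGT, which were looked for upstream of the members. RefSeq windows (GRCm38.p6) were at hand for 5 members: Panx1, Gja1, Gja4, Gja5 and Gjb2. In the 250 bases before the annotated start, 1 of these 5 held a hexamer on either strand (reverse complements ACCACA and ACCGCA), against 18.6% of 32851 windows of the same length. A count of 1 in 5 is near that share, and nothing about the members is read from it. The window is that of Panx1, with 2 hexamers that do not overlap each other. The first begins 243 bases and the second 98 bases before the start. The Panx1 window (chr9:15045479-15045728, minus strand) is printed 5′ to 3′ with the hexamers in capitals, to show their place, and that of Gja1 (chr10:56377050-56377299, plus strand), the main connexin of osteoblasts, follows as a window with none.
Panx1: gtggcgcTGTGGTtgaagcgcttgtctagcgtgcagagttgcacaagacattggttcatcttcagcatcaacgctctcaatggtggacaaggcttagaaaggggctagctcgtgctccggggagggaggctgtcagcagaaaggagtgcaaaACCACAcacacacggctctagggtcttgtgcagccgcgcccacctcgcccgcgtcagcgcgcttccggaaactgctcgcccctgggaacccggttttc
Gja1: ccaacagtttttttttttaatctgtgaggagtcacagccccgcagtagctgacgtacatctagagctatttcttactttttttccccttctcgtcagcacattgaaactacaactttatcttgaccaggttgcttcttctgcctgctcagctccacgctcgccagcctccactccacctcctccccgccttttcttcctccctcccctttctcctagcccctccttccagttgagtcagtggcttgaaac
A match is a description of the letters in this window and not a binding site, and its absence says nothing about the factor. Panx1 lies at chr9:15005785-15045478 and Panx3 at chr9:37659902-37669222 in the same build.

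Genes whose profile over the 4 arrays was most like that of Panx3 were found by the Euclidean distance between mean-centred values, over the tested genes other than members, predicted genes, clone names and small RNAs. Cnmd, which encodes the cartilage protein chondromodulin, was nearest at a distance of 0.025. It read 10.31 and 10.30 on the mutant-labelled arrays and 11.51 and 11.54 in wild type, a difference of -1.22. Sgms2, a sphingomyelin synthase, followed at a distance of 0.13 with a difference of -1.14. Chil1, a chitinase-like secreted protein, lay at a distance of 0.15 with -1.33, Cda, cytidine deaminase, at 0.15 with -1.17, and Tlr8, a receptor for RNA in myeloid cells, at 0.15 with -1.31.

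**Figure D3:**
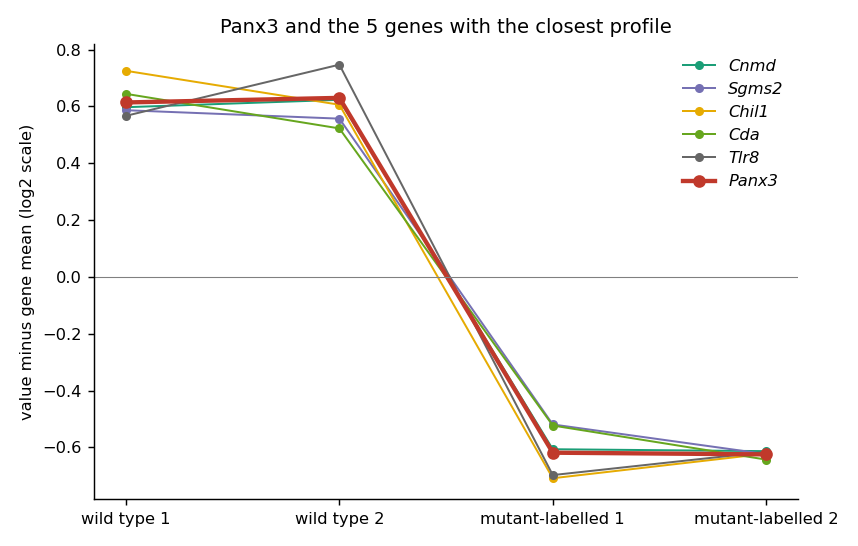
Values minus the gene's mean over the 4 arrays (y axis, log2 scale) for Panx3 (thick red line) and the 5 genes with the closest profile, on each array (x axis). Wild-type points lie between 0.52 and 0.75 and mutant-labelled points between -0.71 and -0.52, and Cnmd follows Panx3 at a distance of 0.025.

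Markers of several cell types differed between the groups, and the values are given beside Panx3 because maturing osteoblasts and chondrocytes make it. Of 10 tested osteoblast markers, 5 were at least 1.5-fold lower in both replicates and 0 higher, with a median difference of -0.68. They included Ibsp, bone sialoprotein, at -1.55, Dmp1, a mineralization protein, at -1.46 and Mepe, a phosphoglycoprotein of osteocytes, at -1.16. Col1a1 and Col1a2, the chains of type I collagen, were at -0.01 and -0.02. Sp7 was the 1 marker of this list higher in both replicates, by 0.29 and 0.08 (mean difference 0.19), where 6 were lower in both. Of 11 tested chondrocyte markers, 3 were at least 1.5-fold lower in both replicates (Col10a1 at -2.05, Cnmd at -1.22 and Col2a1 at -0.95), with a median of -0.36, while the chondrocyte factor Sox9 was at -0.02 and Comp at -0.17. The summed level of the chondrocyte list was 13.12 and 13.22 on the mutant-labelled arrays against 13.64 and 13.68 in wild type, that of the osteoblast list 14.74 and 14.88 against 15.03 and 15.18 (log2 of summed linear values).

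Macrophage markers showed the widest gap of the 8 marker lists. All 12 were lower in both replicates and 11 at least 1.5-fold lower in both, with a median difference of -1.57. The scavenger receptor Mrc1 was at -2.93, Ms4a7 at -2.88, Adgre1 at -2.44, Lyz2 at -1.77 and Cd68 at -0.75. The summed level was 11.31 and 11.47 on the mutant-labelled arrays against 12.97 and 13.07 in wild type. In these bulk cultures fewer cells of a type and less RNA per cell cannot be told apart, and 0 of the macrophage, osteoblast and chondrocyte markers were at or below the floor on all arrays. The part of these cell types in the Panx3 and Panx1 differences was not tested.

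Markers of endothelium and epithelium, where Gja4, Gja5 and Gjb2 are best known, had medians near 0. Among 14 endothelial markers, 3 were at least 1.5-fold higher in both replicates and 0 lower: the adhesion protein Cdh5 at 1.49, the VEGF receptor Flt1 at 1.36 and Emcn at 1.12. The median was 0.02, and the summed level was 12.10 and 12.18 against 11.98 and 12.07 in wild type. Much of that sum is Eng, which read 11.70 and 11.75 on the mutant-labelled arrays and differed by -0.02. Gja4 and Gja5 gave differences of -0.01 and 0 on the same arrays. Of 7 tested epithelial markers Cdh1, E-cadherin, was 1 gene at least 1.5-fold higher in both (1.59), the median was 0 and Krt10 was equal in both replicates. The summed epithelial level was 8.87 and 9.68 on the mutant-labelled arrays against 8.54 and 9.31 in wild type. Cdh1, at 7.30 and 8.19 against 5.68 and 6.62, was the 1 tested marker of this list higher in both replicates. Of the others, 4 were equal in both and 1 was lower in both, so the sum is not read as more epithelial RNA in general. Smooth muscle markers had a median of 0.09 over 10 genes, with Mylk, the myosin light chain kinase, at 0.77, Acta2 at -0.11 and Pdgfrb at 0.01. Skeletal myoblast markers had 0 of 7 tested genes that far apart (Acta1 at -0.21, Myog equal), as had the 7 neuronal and glial markers, where Tubb3 was at -0.35 and Rbfox3 equal.

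The wider family and the pathway were read from 6 lists with 71 tested genes in all. Genes named from these lists were picked by the size of the difference between the groups, so their p-values are given as a description. In the limma fit over all genes 0 of 17841 passed an adjusted p of 0.05, and 707 had an unadjusted p under 0.05 (3.96%); of the 71 genes 0 and 6 did. By fold, 1 was at least 1.5-fold higher and 4 lower in both replicates, or 7.04% of the 71 against 2.63% of all tested genes. The median difference of the 71 genes was -0.03 against 0 over all tested genes. The lists were chosen with earlier results of these data known, so nothing is read from these shares.

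Of 11 other connexins analysed here, 7 passed the floor. None of the 7 was 1.5-fold apart in both replicates. The differences ran from -0.15 (Gjd3, with 6.16 and 7.24 against 6.44 and 7.27 in wild type) to 0.09, and Gja3, a lens connexin, was at -0.12. Gjd3, like Gja4, varied more between replicate numbers than between groups.

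Of 16 genes for gap junction scaffolds and for adhesion and cytoskeletal partners, 0 were 1.5-fold apart in both replicates, and their median difference was -0.05. Cdh2, N-cadherin, whose junctions accompany those of Cx43, was the member of this list with the widest mean difference. It read 11.98 and 12.05 on the mutant-labelled arrays against 11.49 and 11.55 in wild type, higher by 0.49 (limma, SE 0.12, unadjusted p = 0.0187, adjusted p = 0.876). Pkp2, a desmosome protein, was lower by 0.59 in replicate 1 (difference -0.59) and equal in replicate 2. Among 11 kinases and turnover factors of connexins, Prkcd was at 0.25 and Src, which phosphorylates Cx43, at -0.24, and 0 were 1.5-fold apart in both.

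The list of other ATP release routes, large-pore channels and related channels held 1 gene of 14 that far apart. Slco2a1, a prostaglandin transporter that also forms a large ATP-releasing anion channel, read 8.10 and 8.53 on the mutant-labelled arrays and 9.12 and 9.31 in wild type. The groups did not overlap, and the difference was -0.90 (limma, SE 0.21, unadjusted p = 0.0168, adjusted p = 0.848).

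Receptors for extracellular nucleotides, the readers of released ATP, held 3 of 14. P2ry6, a receptor for UDP that macrophages also express, read 6.38 and 7.24 on the mutant-labelled arrays and 8.57 and 8.91 in wild type, a difference of -1.93 (limma, SE 0.37, unadjusted p = 0.00838, adjusted p = 0.656). The differences were -2.19 in replicate 1 and -1.67 in replicate 2, next to the macrophage markers already given, whose part in it was not tested. P2rx2, an ATP-gated ion channel, went the other way, at 8.22 and 8.32 against 6.98 and 7.68, higher by 0.94 (limma, SE 0.29, unadjusted p = 0.0377, adjusted p = 1). P2ry2, an ATP and UTP receptor of osteoblasts, read 7.36 and 8.03 against 8.07 and 8.67 in wild type, a difference of -0.67 (limma, SE 0.36, unadjusted p = 0.143). In P2ry2 the groups nearly touched, with mutant-labelled replicate 2 just below wild-type replicate 1.

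Enzymes of nucleotide and pyrophosphate metabolism held 1 of 9 tested genes. Enpp3, a nucleotide pyrophosphatase, read 8.01 and 8.43 on the mutant-labelled arrays against 8.69 and 9.21 in wild type, a difference of -0.73 (limma, SE 0.27, unadjusted p = 0.0638, adjusted p = 1). The median of this list was 0.

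**Figure D4:**
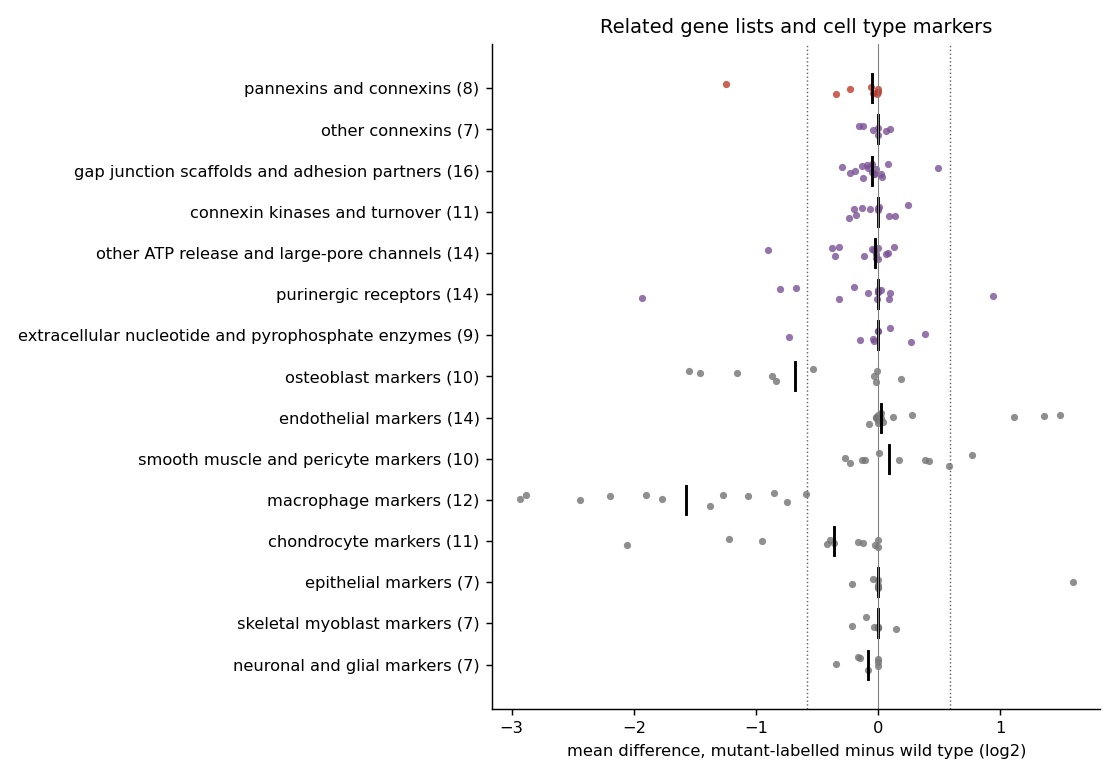
Mean difference between mutant-labelled and wild-type arrays (x axis, log2) for each tested gene of the pannexins and connexins (red), the 6 related lists (purple) and the cell type marker lists (grey), with the number tested in brackets; black bars are list medians and dotted lines mark 1.5-fold. The related lists centre between -0.05 and 0, with P2ry6 at -1.93 and P2rx2 at 0.94 as their outermost genes, while the macrophage list centres at -1.57.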

How the data were processed

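Total RNA of 4 cultures was hybridised to Affymetrix Mouse Gene 2.0 ST arrays, 200 ng each, per the labels' protocols. The values are those the authors deposited, taken as log2. Partek and RMA are the tools listed in the submitters' processing notes, with no version; log base, centring and joint processing are not stated in them. The number of arrays limits the precision. Of 41345 rows, 23521 carry 1 gene symbol in the platform annotation, 1814 several and 16010 none; only the first were named.

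The brightest row stood for a gene. Genes entered the test with 2 or more arrays above the floor of 4.71 (17841 genes, 80.4%). The fit used R 4.3.3 and limma 3.58.1 (lmFit, eBayes, group alone, two-sided, Benjamini-Hochberg over all tested genes) and was tested on simulated data. Differences were also taken within replicate numbers. SE is limma's moderated standard error.

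Members and lists were chosen with earlier results of these data known. Named genes were, per related list, up to 4 at least 1.5-fold apart in both replicates, or else the 1 or 2 with the widest difference; per marker list, up to 3 such genes and the 2 brightest; and for Panx3 the 5 nearest profiles, without predicted genes, clone names and small RNAs. Sp7 was named outside this rule, for its direction. Alternatives changed the floor, normalization, probe sets, variance model, rows tested, replicate block, thresholds and arrays. Spp1, Runx2 and other listed genes without a row of their own were not analysed here.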

Additional observations from a re-analysis of the deposited data

How the results depend on the processing

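Panx3 remained the 1 member at least 1.5-fold apart under every floor, normalization, probe set, fold (2-fold and 0.32 log2 units) and left-out array tried; its difference ran from -1.28 to -1.24, and from -1.252 to -1.236 with an array left out. Panx1 ran from -0.39 to -0.34 and from -0.42 to -0.27. With an array left out, the offset between replicates enters the difference: Gja4 ran from -0.38 to 0.36, Gja5 from -0.19 to 0.19, Gja1 from -0.17 to 0.06 and Gjb2 from -0.62 to 0.17. Quantile normalization again put Panx2 at -0.05 and centring on the median at -0.04, where the deposited values were equal.

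The 0 genes past the adjusted limma threshold became 49 with an intensity trend, 399 with the replicate block after quantile normalization again, and 707 by unadjusted p. The replicate block alone left 0 genes past it, with 2319 by unadjusted p where the fit without it had 707. The differences of the members do not change under the block, and fold counts and lists were not refitted with it. Same-numbered arrays deviated together (r = 0.92 across all tested genes), but the labels do not say what a number marks. Genes with exactly equal values were included in r, and their part in it was not tested. Under the block the SE of Panx3 was 0.0094 and that of Panx1 0.029, while Panx2 and Gja5, with exactly equal values, each had 0.0011. The equal values enter the variance that limma shares between genes, so these SEs are not read as precision. The 469 genes at least 1.5-fold apart became 187 at 2-fold and 1139 at 0.32 log2 units; with an array left out, when the other replicate alone decides, they ran from 569 to 816. The 5 genes of the related lists stayed 5 in number under each normalization and probe set choice. The cause of these shifts was not tested.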

Other observations

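Exactly equal values were spread unevenly over signal levels. With the tested genes cut by mean level into 4 equal bins, 49.3% of the dimmest were equal between the groups in both replicates, against 27.6%, 15.0% and 10.9% in the following bins. Gja5 lay in the dimmest bin, Panx1, Panx2, Gja4, Gjb2 and Gjc1 in the next, Panx3 in the third and Gja1 in the brightest. Of the dimmer 6 members 5 were equal in at least replicate 2, and Panx3 and Gja1 were equal in neither. The shares of tested genes equal in replicate 2, whatever replicate 1 held, were 69.6%, 54.0%, 43.2% and 34.2% from the dimmest bin to the brightest. Nothing about the members is read from these counts. The shared row of Gpr89 and Gja5 was bright and also equal in both, at 9.46 in replicate 1 and 9.48 in replicate 2.

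Further pathway genes were picked after their values were seen. Lrrc8b, a subunit of the volume-regulated anion channel, was below wild type on both mutant-labelled arrays, at 8.36 and 8.38 against 8.71 and 8.80, while Lrrc8a, the subunit that channel requires, was at -0.03. P2ry12, an ADP receptor of platelets and microglia, read 5.29 and 5.26 against 6.40 and 5.75, at least 1.5-fold lower in replicate 1 but not in replicate 2 (-1.11 and -0.49). Ank, which moves pyrophosphate and ATP out of cells, was at -0.50 and -0.21, and Nt5e, which makes adenosine, at 0.28 and 0.25 within the replicates.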
